A study of Mus musculus with 9 samples.

Results

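The genes described here were 51 genes of the cell division cycle and of DNA replication, chosen by symbol in a table of read counts for 39179 genes. They were cyclins, cyclin-dependent kinases (CDKs), replication and nucleotide synthesis factors, mitosis genes, transcription factors of the cycle and its brakes, and they were read as a measure of proliferation. All 51 were in the table, each under 1 entry, and all 51 were among the 13819 genes with enough counts to test. The libraries came from dendritic cells (DCs) of the spleen of untreated C57BL/6J mice in the steady state, aged 6 to 12 weeks, sorted into 3 subsets. CD8+ conventional DCs (cDC1, labelled CD8pos cDC1) were gated as CD11c hi, CD317 lo, CD8+ and CD11b-, the CD8- conventional DCs (cDC2, labelled CD8neg cDC2) as CD11c hi, CD317 lo, CD8- and CD11b+, and plasmacytoid DCs (pDC) as CD11c int, CD317 hi and CD11b-. Each subset had 3 libraries. The paper pooled 15 to 17 mice for several experiments on sorted DCs, but its sequencing methods give no pool size. Values are therefore not tied to single animals here. The files used here hold counts of transcripts and no DNA content or other assay of proliferation.

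A cell commits to division in G1, when D-type cyclins with Cdk4 or Cdk6, and then cyclin E with Cdk2, phosphorylate the retinoblastoma protein and so free E2F factors to switch on the genes of DNA synthesis. Replication origins are loaded with the MCM helicase, the helicase is activated and copies the genome in S phase, and cyclins A and B with Cdk1 then drive entry into mitosis. Most transcripts of S phase and mitosis are made only in dividing cells, whereas D-type cyclins and CDK inhibitors are also made in resting cells. Conventional DCs of the spleen are kept up partly by division of cells in the tissue, while pDC mostly finish dividing in the bone marrow.

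The libraries held 15806597 to 32453789 counts on genes. The 51 genes took 0.345 to 0.404% of the counts in cDC1, 0.496 to 0.563% in cDC2 and 0.185 to 0.212% in pDC. Levels are given as CPM, counts relative to the library total with scaling by the trimmed mean of M-values (TMM), always in the order of replicates 1, 2 and 3, and a count of 3 was worth 0.0924 to 0.190 CPM before that scaling, a limit that covers counting error only. Most marker genes followed the sort. All 6 pDC markers, Siglech and Bst2 among them, were higher in pDC than in either conventional subset. Of 6 cDC1 markers, such as Xcr1, all 6 were lower in pDC than in cDC1 and 5 were lower in cDC2, with Batf3 not passing, while Cd8a and Clec9a stood higher in pDC than in cDC2. Of 6 cDC2 markers, such as Itgam, all 6 stood higher in cDC2 against cDC1 and 5 were lower in pDC than in cDC2, while Cd4 stood higher in pDC. Libraries of bulk sorted cells cannot tell fewer dividing cells from less RNA of a gene per cell.

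Many promoters of the members carried the letters known from genes of the cycle. As examples, 6 windows are shown for genes of mitosis, of DNA replication and of G1. RefSeq promoter sequences (build GRCm38.p6, from 250 bases before to 50 bases after a start) were matched by symbol for 40 of the 51 members, as 45 promoters. Aurkb, Ccna2, Ccnd1, Ccnd2, Ccne2, Foxm1, Gins1, Gins2, Kif20a, Mcm4 and Rb1 had no entry in the table. Each window holds the 150 bases before the start, and capitals mark motif matches on either strand. The cell cycle homology region (CHR) was searched as TTTGAA. A second form of the CHR, with a CpG at its centre, was searched as TTCGAA. The CCAAT box was searched by that name's own letters. The E2F-type site was searched in the forms TTTCCCGC, TTTCGCGC, TTTGCCGC and TTTGGCGC. Matches that overlap are run together.
Cdk1, chr10:69352913-69353062, minus strand: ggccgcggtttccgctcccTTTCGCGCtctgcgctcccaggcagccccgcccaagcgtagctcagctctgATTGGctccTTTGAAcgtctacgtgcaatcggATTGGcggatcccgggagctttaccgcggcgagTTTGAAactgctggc
Top2a, chr11:99024190-99024339, minus strand: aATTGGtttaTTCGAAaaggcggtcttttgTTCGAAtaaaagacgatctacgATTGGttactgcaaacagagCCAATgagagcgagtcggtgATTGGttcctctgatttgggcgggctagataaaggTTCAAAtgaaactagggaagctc
Kif11, chr19:37376232-37376381, plus strand: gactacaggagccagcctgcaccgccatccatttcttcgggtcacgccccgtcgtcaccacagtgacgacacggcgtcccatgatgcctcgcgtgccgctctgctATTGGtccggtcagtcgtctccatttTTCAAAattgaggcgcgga
Mcm6, chr1:128359706-128359855, minus strand: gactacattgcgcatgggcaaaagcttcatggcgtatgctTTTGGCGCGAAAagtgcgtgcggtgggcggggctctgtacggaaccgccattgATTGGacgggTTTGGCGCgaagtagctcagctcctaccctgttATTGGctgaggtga
Cdc6, chr11:98908001-98908150, plus strand: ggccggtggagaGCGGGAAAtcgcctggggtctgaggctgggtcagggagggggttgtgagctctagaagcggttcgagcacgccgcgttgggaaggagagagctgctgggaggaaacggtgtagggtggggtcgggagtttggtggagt
Cdk4, chr10:127063385-127063534, plus strand: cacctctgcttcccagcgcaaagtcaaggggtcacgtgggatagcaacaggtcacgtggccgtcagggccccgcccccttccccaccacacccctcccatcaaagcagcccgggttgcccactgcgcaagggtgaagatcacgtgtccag
Cdk1, Top2a and Kif11 stand for genes of mitosis, and Mcm6 and Cdc6 for genes of DNA replication. Cdk4 stands for a G1 kinase not called different between the subsets with all 9 libraries and no replicate block. With the block, or with some libraries left out, it was called. Cdk1 held CHR letters beginning 71 and 15 bases before the start, CCAAT letters 80 and 48 bases before it and E2F-type letters 131 bases before it. Mcm6 held E2F-type letters beginning 110, 106 and 47 bases before its start and no CHR letters. The Cdk4 window held none of the motifs.

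Among 13 promoters of S and M cyclins, Cdk1 and mitosis genes, 11 held CHR letters (84.6%), 12 a CCAAT box (92.3%) and 1 an E2F-type site (7.69%). Among 15 promoters of replication and nucleotide genes, 3 held CHR letters (20%), 11 a CCAAT box (73.3%) and 6 an E2F-type site (40%). The same letters occurred in 19.2%, 37.4% and 2.26% of all 32851 promoters of the table. Members not lower in pDC than in both conventional subsets had 7 promoters, from 5 genes. Of these, 0 held CHR letters, 3 a CCAAT box (42.9%) and 0 an E2F-type site. Members lower than both had 38 promoters, of which 16 held CHR letters (42.1%), 28 a CCAAT box (73.7%) and 10 an E2F-type site (26.3%). With only 7 promoters a share of 0 says little, and no difference between these groups was tested. Birc5 was the 1 mitosis promoter with no match, and Ccnb1 held CCAAT boxes without CHR letters. A match is a description of the sequence and was not tied to binding of any factor.

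**Figure D1:**
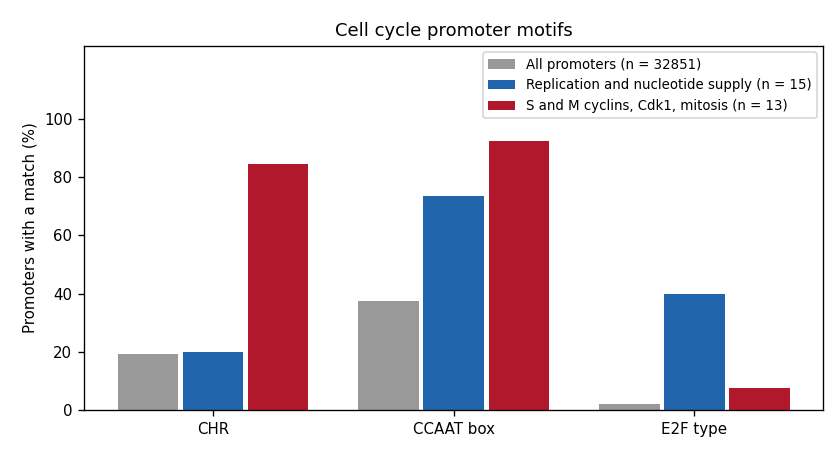
Percent of RefSeq promoters (y axis) with a match to each motif (x axis) among all 32851 promoters, 15 promoters of replication and nucleotide genes and 13 promoters of S and M cyclins, Cdk1 and mitosis genes. CHR letters were at 84.6% in the mitotic group against 19.2% of all promoters, and E2F-type sites at 40% in the replication group against 2.26%.

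Across the subsets, most of the 51 genes were lower in pDC. Against cDC1, 43 of the 51 were lower in pDC, where 24.4% of all genes tested were lower, and 2 were higher (Ccnd1 and Ccnd2), where 24.3% of all genes were. Against cDC2, 46 were lower (23.3% of all genes) and 1 was higher, Cdk6 (22.5%). The median log2 fold change of the 51 was -3.17 for pDC against cDC1 and -3.07 against cDC2, where the medians over all genes tested were 0.018 and -0.0088. The fall was over 8-fold for 28 members against cDC1 and for 26 against cDC2, as it was for 5.78% and 6.59% of all genes. It was over 16-fold for 15 and 11 members, and for 3.5% and 3.83% of all genes. The 3 pDC libraries lay below the 3 cDC1 libraries in 44 members (29.6% of all genes) and below the 3 cDC2 libraries in 47 (28.5%). Both comparisons use the same pDC libraries, so they are not independent of each other.

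The conventional subsets differed in few of these genes. Against cDC1, 4 members were higher in cDC2 (Ccnd1, Ccnd2, E2f2 and Rb1), where 12.7% of all genes were, and 1 was lower (Kif23), where 11.7% were. The median log2 fold change of the 51 was 0.0037, and 0.027 over all genes. In all, 46 of the 51 differed somewhere among the 3 subsets, as 56% of the genes tested did. Those tests were edgeR quasi-likelihood tests at an adjusted p of 0.05 over all genes tested. Same-numbered libraries of the 3 subsets carry the same date code, and with the replicate number as a block 12 members differed between cDC2 and cDC1 in place of 5, where 35.6% of all genes did in place of 24.4%.

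**Figure D2:**
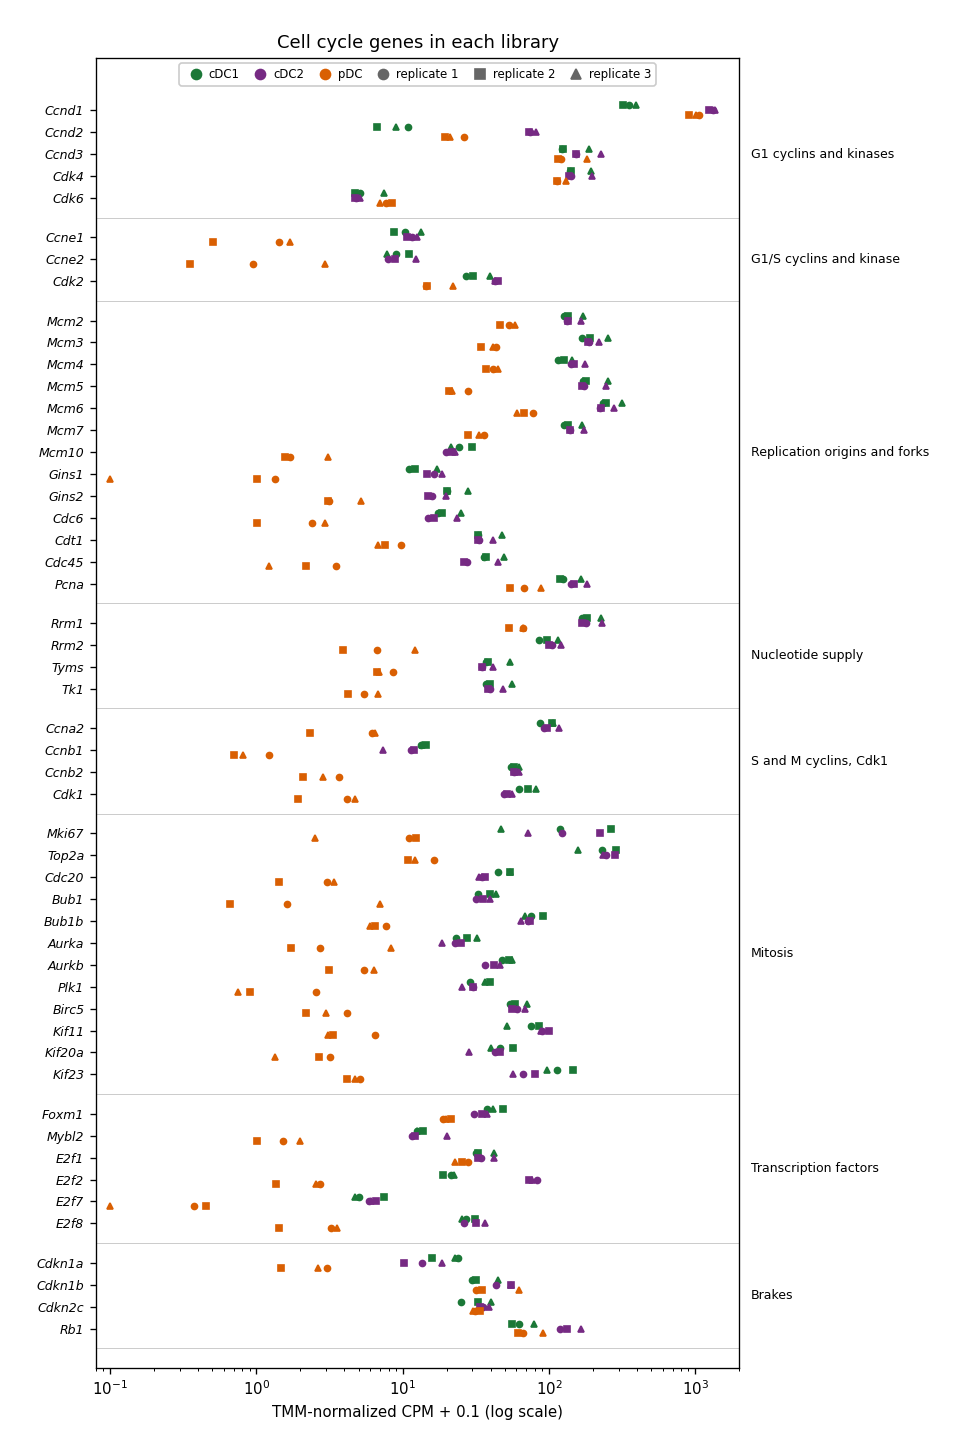
Level of each of the 51 genes (rows, grouped by role) in each of the 9 libraries, as TMM-normalized CPM plus 0.1 on a log axis, with colour for the subset and marker shape for the replicate number. The pDC points sit to the left of all conventional DC points from Ccne1 down to E2f8, and overlap at least 1 conventional subset for Ccnd3, Cdk6, Cdkn1b, Cdkn2c and Rb1.

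**Figure D3:**
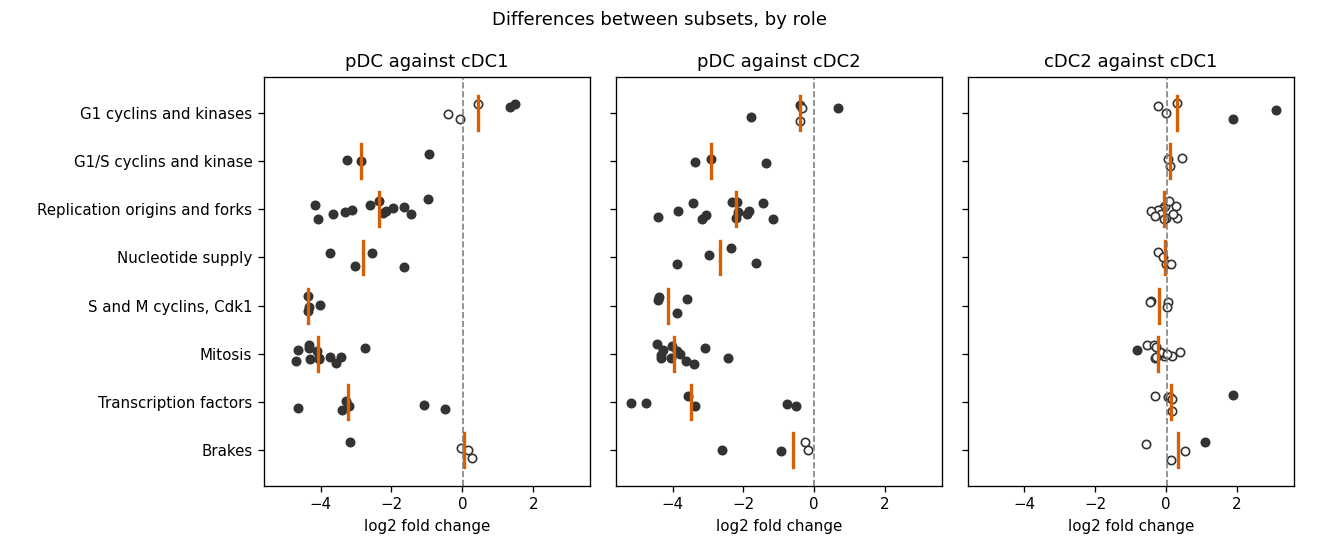
Log2 fold change (x axis) of each gene, by role (rows), in 3 panels, with pDC set against each conventional subset and the conventional subsets against each other. Filled points passed the test, open points did not, the orange bars are medians of a role and the dashed line is the median of all genes tested; the S and M cyclin and mitosis medians lay between -3.95 and -4.34 in the pDC comparisons.

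The G1 cyclins and their kinases did not follow the rest. Ccnd1, cyclin D1, stood at 354, 323 and 392 CPM in cDC1, 1329, 1236 and 1368 in cDC2 and 1068, 902 and 1007 in pDC. It was highest in cDC2 and lowest in cDC1 with no overlap, 2.78-fold higher in pDC than in cDC1 and 1.32-fold lower than in cDC2 (log2 fold changes 1.48 ± 0.10 and -0.40 ± 0.10 SE, edgeR adjusted p = 2.30e-06 and 0.00952). The excess of cDC2 over cDC1 was 3.68-fold (edgeR adjusted p = 3.19e-06). Without replicate 1 of all subsets the pDC and cDC2 levels no longer passed, at an edgeR adjusted p of 0.0893. LTO1, on the opposite strand, covers 23.4% of its exonic bases, and the strand setting of the counting is not given in the sources used here.

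Ccnd2, cyclin D2, stood at 10.9, 6.59 and 8.94 CPM in cDC1, 74.4, 72.7 and 80.9 in cDC2 and 26.2, 19.4 and 20.9 in pDC. The subsets did not overlap, and cDC2 exceeded cDC1 8.63-fold and pDC 3.42-fold, while pDC exceeded cDC1 2.52-fold (edgeR adjusted p = 6.40e-06, 3.83e-05 and 0.000269). Ccnd3, cyclin D3, stood at 124, 124 and 188 CPM in cDC1, 153, 154 and 228 in cDC2 and 120.3, 115 and 181 in pDC. Its ranges overlapped in every pair of subsets, replicate 3 was the highest library of each, and no difference passed (edgeR adjusted p from 0.259 to 0.855). With the replicate block, pDC fell below cDC2 and cDC2 lay above cDC1 (log2 fold changes -0.36 and 0.30, edgeR adjusted p = 0.000658 and 0.00357).

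Cdk4, a partner of the D-type cyclins, stood at 139, 141 and 195 CPM in cDC1, 142, 137 and 197 in cDC2 and 113, 114 and 130.0 in pDC. The pDC libraries lay below those of both other subsets, by 1.33-fold in each case, without passing the test (edgeR adjusted p = 0.0823 and 0.0846). With the replicate block both falls passed (edgeR adjusted p = 0.00268 and 0.00278). Both also passed without replicate 3 of all subsets (edgeR adjusted p = 0.00563 and 0.00993). The fall against cDC1 passed without cDC2 replicate 3, and that against cDC2 without cDC1 replicate 3 (edgeR adjusted p = 0.0307 and 0.044). Tspan31 on the opposite strand covers 19.7% of the exonic bases of Cdk4. Cdk6, the other partner, stood at 5.02, 4.59 and 7.38 CPM in cDC1, 4.71, 4.62 and 4.99 in cDC2 and 7.56, 8.31 and 6.89 in pDC. It was 1.59-fold higher in pDC than in cDC2 (edgeR adjusted p = 0.0419), and its excess over cDC1 did not pass (edgeR adjusted p = 0.163). Without replicate 3 of all subsets the excess over cDC1 did pass (log2 fold change 0.69, edgeR adjusted p = 0.0064). The call against cDC2 was lost without cDC1 replicate 1, without any 1 cDC2 library, or without pDC replicate 1 or 2, at edgeR adjusted p from 0.0623 to 0.119. It was also lost without replicate 1 or replicate 2 of all subsets (edgeR adjusted p = 0.287 and 0.315).

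**Figure D4:**
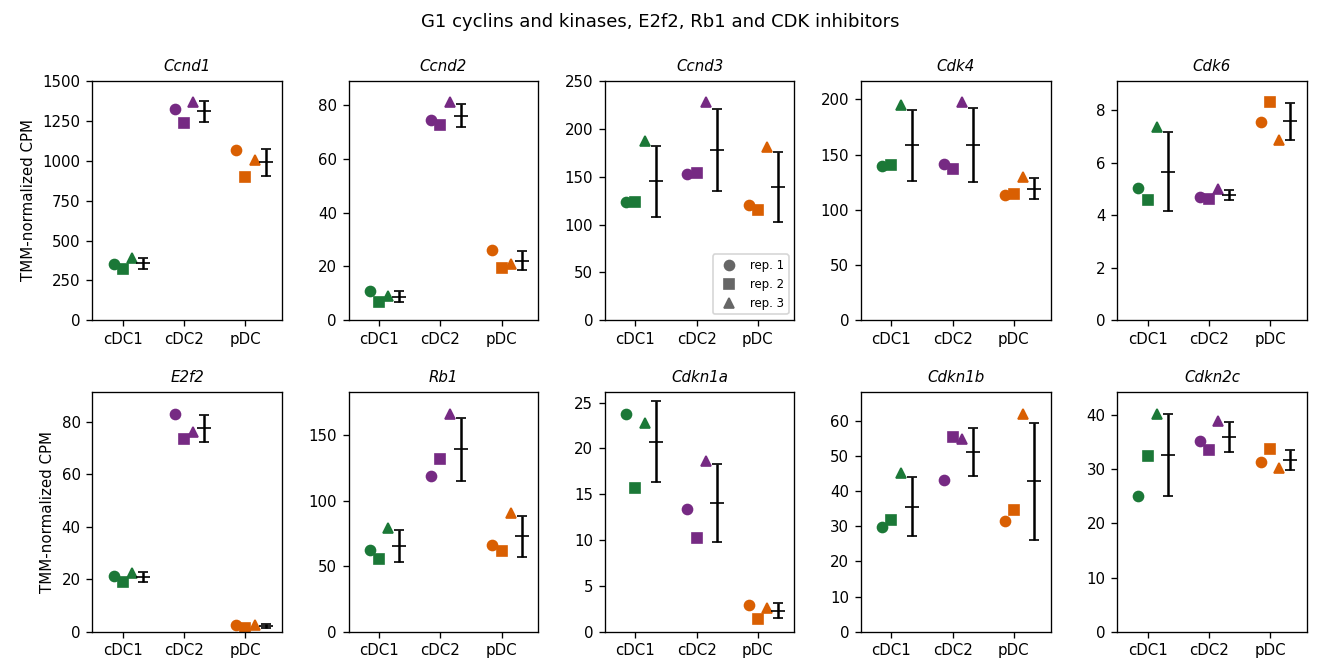
TMM-normalized CPM (y axes, each from 0) of G1 cyclins and kinases, E2f2, Rb1 and CDK inhibitors in the 3 subsets; marker shapes are replicates 1 to 3, and the bars give the mean ± SD of 3 libraries. Ccnd1, Ccnd2, E2f2 and Rb1 stood highest in cDC2, and Ccnd3, Cdkn1b and Cdkn2c overlapped between the subsets.

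Cyclin E and Cdk2, which act at the passage from G1 to S, were lower in pDC in 3 of 3 members against each conventional subset. Ccne1 stood at 10.3, 8.63 and 13.2 CPM in cDC1, 11.4, 10.6 and 12.5 in cDC2 and 1.33, 0.405 and 1.59 in pDC. Ccne2 stood at 8.92, 11 and 7.72 CPM in cDC1, 7.84, 8.75 and 12.2 in cDC2 and 0.847, 0.253 and 2.83 in pDC. Their pDC libraries lay far below the others and spread widely among themselves, with a mean of 1.11 ± 0.62 CPM for Ccne1 and 1.31 ± 1.35 for Ccne2 (SD, n = 3). Ccne1 was 9.55-fold below cDC1 and 10.3-fold below cDC2 (edgeR adjusted p = 9.93e-05 and 8.82e-05). Ccne2 was 7.26-fold and 7.54-fold below them (edgeR adjusted p = 0.0035 and 0.00338), and neither passed without replicate 1 of all subsets (edgeR adjusted p = 0.0716 and 0.0645). Ints8, on the opposite strand, covers 17.4% of the exonic bases of Ccne2. Cdk2 kept more of its level, at 27.2, 30.2 and 39.4 CPM in cDC1, 42.8, 45.1 and 42.7 in cDC2 and 14.3, 14.5 and 22 in pDC. It was 1.9-fold and 2.57-fold lower in pDC (edgeR adjusted p = 0.00332 and 0.000336).

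All 13 members of the replication machinery were lower in pDC than in cDC1 and all 13 were lower than in cDC2, with no overlap of the libraries. Their summed level was 1207, 1279.9 and 1662 CPM in cDC1, 1266, 1279 and 1612 in cDC2 and 369, 304 and 367 in pDC, so the pDC mean was 0.25 of that in either conventional subset. Within the group the fall ran from 1.95-fold for Pcna to 17.8-fold for Cdc45 against cDC1, with standard errors of the log2 fold change between 0.13 for Mcm4 and 0.62 for Gins1.

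The 6 subunits of the MCM helicase, which is loaded at origins and unwinds DNA at the fork, all fell, from 2.73-fold for Mcm2 to 8.63-fold for Mcm5 against cDC1. Mcm2 was at 126, 135 and 171 CPM in cDC1, 132, 135 and 166 in cDC2 and 53.1, 46.6 and 58.7 in pDC. The fall of Mcm2 in pDC was 2.73-fold against cDC1 and 2.73-fold against cDC2 (edgeR adjusted p = 3.67e-05 and 4.06e-05). For Mcm3 the levels were 169, 189.8 and 254 CPM in cDC1, 188, 186 and 219 in cDC2 and 43.6, 34.2 and 41.5 in pDC, so that pDC lay 5.14-fold below cDC1 and 4.97-fold below cDC2 (edgeR adjusted p = 2.72e-06 and 3.29e-06). Mcm4 stood at 114, 126 and 143 CPM in cDC1, 142, 147 and 177 in cDC2 and 41.7, 37.1 and 45 in pDC. Mcm4 in pDC was thus 3.1-fold below cDC1 and 3.76-fold below cDC2 (edgeR adjusted p = 6.20e-06 and 2.54e-06). Replicate 3 was the highest library of both conventional subsets for each of these. Mcm5 was at 172, 178 and 255 CPM in cDC1, 172, 169 and 247 in cDC2 and 27.7, 20.8 and 21.5 in pDC. The fall of Mcm5 in pDC was 8.63-fold against cDC1 and 8.39-fold against cDC2 (edgeR adjusted p = 2.42e-06 and 2.79e-06). For Mcm6 the levels were 234, 247 and 315 CPM in cDC1, 225, 227 and 277 in cDC2 and 77.4, 67.2 and 60.2 in pDC, so that pDC lay 3.89-fold below cDC1 and 3.56-fold below cDC2 (edgeR adjusted p = 4.57e-06 and 7.91e-06). Mcm7 stood at 127, 134 and 169 CPM in cDC1, 140.3, 139.7 and 172 in cDC2 and 35.9, 27.8 and 33.3 in pDC. Mcm7 in pDC was thus 4.43-fold below cDC1 and 4.66-fold below cDC2 (edgeR adjusted p = 2.85e-06 and 2.50e-06). The pDC level of Mcm5 was thus at most 27.7 CPM in any library, while Mcm2, Mcm4 and Mcm6 kept 37.1 CPM or more. Per kilobase of exon, Mcm6 and Pcna had the highest mean levels of the replication group in cDC1, each 56.9 CPM. For Mcm7, 13.2% of the 75-base windows of its transcripts also occur in transcripts of 4 other genes.

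The 6 loading and firing factors fell by 4.68-fold to 17.8-fold against cDC1. Cdc6 and Cdt1 bring the helicase to origins. Cdc6 was at 17.3, 18.5 and 24.8 CPM in cDC1, 14.8, 16.3 and 23.6 in cDC2 and 2.3, 0.912 and 2.83 in pDC. The fall of Cdc6 in pDC was 9.99-fold against cDC1 and 9.03-fold against cDC2 (edgeR adjusted p = 5.35e-05 and 7.81e-05). For Cdt1 the levels were 32.7, 32.6 and 47.3 CPM in cDC1, 33.1, 32.7 and 41.5 in cDC2 and 9.71, 7.45 and 6.71 in pDC, so that pDC lay 4.68-fold below cDC1 and 4.47-fold below cDC2 (edgeR adjusted p = 1.57e-05 and 2.14e-05). Cdc45 and the GINS complex join the helicase when an origin fires, and Mcm10 takes part in that step. Cdc45 stood at 35.9, 36.8 and 49.2 CPM in cDC1, 27.4, 26.3 and 44.5 in cDC2 and 3.39, 2.08 and 1.12 in pDC. Cdc45 in pDC was thus 17.8-fold below cDC1 and 14.3-fold below cDC2 (edgeR adjusted p = 1.16e-05 and 2.10e-05). Mcm10 was at 24.1, 29.7 and 21.4 CPM in cDC1, 19.8, 21.8 and 22.6 in cDC2 and 1.6, 1.47 and 3 in pDC. The fall of Mcm10 in pDC was 12.6-fold against cDC1 and 10.7-fold against cDC2 (edgeR adjusted p = 3.47e-06 and 5.64e-06). Gins1 stood at 10.9, 12 and 17 CPM in cDC1, 16.2, 14.5 and 18.6 in cDC2 and 1.24, 0.912 and 0 in pDC, and the count of 0 in pDC replicate 3 allows a level of up to 0.175 CPM. It was 17-fold below cDC1 and 21.1-fold below cDC2 in pDC (edgeR adjusted p = 0.00041 and 0.000285). For Gins2 the levels were 19.8, 19.8 and 28 CPM in cDC1, 15.8, 14.8 and 19.8 in cDC2 and 3.06, 2.99 and 5.12 in pDC, so that pDC lay 6.1-fold below cDC1 and 4.54-fold below cDC2 (edgeR adjusted p = 2.46e-05 and 8.77e-05). Gins2 is the least certain of these, since Gse1 on the opposite strand covers 67.3% of its exonic bases and 64.7% of its 75-base windows are shared. Pcna, the clamp that holds DNA polymerase on its template and also serves in repair, fell least. Pcna stood at 124, 119 and 166 CPM in cDC1, 140.4, 148 and 183 in cDC2 and 67.9, 54.4 and 87.9 in pDC. Pcna in pDC was thus 1.95-fold below cDC1 and 2.24-fold below cDC2 (edgeR adjusted p = 0.00278 and 0.000961). A further gene shares 13.8% of the Pcna windows.

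The 4 genes of nucleotide supply were lower in pDC in both comparisons, with summed levels of 328, 358 and 452 CPM in cDC1, 358, 342 and 443 in cDC2 and 86.8, 67.4 and 91.8 in pDC. Rrm1, the large subunit of ribonucleotide reductase, fell least. Rrm1 was at 168, 183 and 227 CPM in cDC1, 179.7, 169 and 231 in cDC2 and 66.4, 53 and 66.2 in pDC. The fall of Rrm1 in pDC was 3.11-fold against cDC1 and 3.13-fold against cDC2 (edgeR adjusted p = 2.58e-05 and 2.82e-05). Rrm2, the small subunit, which is broken down after S phase, fell most. For Rrm2 the levels were 85.6, 97.4 and 115 CPM in cDC1, 104, 100.1 and 122 in cDC2 and 6.62, 3.8 and 12.1 in pDC, so that pDC lay 13.3-fold below cDC1 and 14.6-fold below cDC2 (edgeR adjusted p = 1.47e-05 and 1.34e-05). Tyms makes thymidylate and Tk1 salvages thymidine. Tyms stood at 37.1, 38.1 and 54.1 CPM in cDC1, 34.8, 35 and 41.4 in cDC2 and 8.44, 6.53 and 6.83 in pDC. Tyms in pDC was thus 5.89-fold below cDC1 and 5.07-fold below cDC2 (edgeR adjusted p = 3.07e-06 and 5.72e-06). Tk1 was at 37.3, 39.4 and 56 CPM in cDC1, 39.4, 38.1 and 48.4 in cDC2 and 5.32, 4.1 and 6.71 in pDC. The fall of Tk1 in pDC was 8.22-fold against cDC1 and 7.81-fold against cDC2 (edgeR adjusted p = 3.48e-06 and 4.48e-06). The conventional subsets overlapped in all 4.

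The cyclins of S phase and mitosis and their kinase Cdk1 fell more evenly, by 16.3-fold to 20.6-fold against cDC1. Their summed level was 217, 249 and 263 CPM in cDC1, 211, 218 and 243 in cDC2 and 14.8, 6.64 and 14.4 in pDC, which left pDC with 0.0492 of the cDC1 mean and 0.0534 of the cDC2 mean. Cyclin A2 works in S phase and G2. For Ccna2 the levels were 86.9, 105 and 106 CPM in cDC1, 92.6, 97.2 and 118 in cDC2 and 6.05, 2.23 and 6.36 in pDC, so that pDC lay 20.2-fold below cDC1 and 20.9-fold below cDC2 (edgeR adjusted p = 3.69e-06 and 3.87e-06). Exosc9, on the opposite strand, covers 12.5% of the exonic bases of Ccna2. Cyclin B2 had the smallest adjusted p of the 4. Ccnb2 stood at 54.7, 57.4 and 62.5 CPM in cDC1, 57.6, 57.9 and 62.7 in cDC2 and 3.57, 1.98 and 2.77 in pDC. Ccnb2 in pDC was thus 20.6-fold below cDC1 and 21.1-fold below cDC2 (edgeR adjusted p = 1.50e-07 and 1.72e-07). Its log2 fold changes were -4.37 ± 0.20 and -4.40 ± 0.20 (SE). Cyclin B1 was lower throughout. Ccnb1 was at 13.2, 14.4 and 13.4 CPM in cDC1, 11.2, 11.8 and 7.28 in cDC2 and 1.12, 0.608 and 0.707 in pDC. The fall of Ccnb1 in pDC was 16.3-fold against cDC1 and 12.1-fold against cDC2 (edgeR adjusted p = 3.35e-06 and 7.35e-06). For Ccnb1, 18.9% of the 75-base windows are shared with 5 other genes. Cdk1, the kinase of mitotic entry, stood at 62.2, 72.3 and 81 CPM in cDC1, 49.4, 51.2 and 55.4 in cDC2 and 4.08, 1.82 and 4.59 in pDC. It was 20.4-fold and 14.8-fold lower in pDC (edgeR adjusted p = 1.45e-06 and 2.85e-06). The cDC2 libraries of Cdk1 lay below all 3 of cDC1, 1.38-fold on average, which did not pass (edgeR adjusted p = 0.209) but did when only those 6 libraries were fitted (edgeR adjusted p = 0.0247).

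The 12 mitosis genes did not overlap between pDC and the conventional subsets: the highest pDC level of any was 16.2 CPM and the lowest conventional level of any was 18.4 CPM. All 12 were lower in pDC in both comparisons, with median log2 fold changes of -4.08 against cDC1 and -3.95 against cDC2. Their summed level was 890.0, 1204 and 756 CPM in cDC1, 856, 1029 and 776 in cDC2 and 68.1, 48.7 and 57.4 in pDC. Mki67 encodes Ki-67, the coat of mitotic chromosomes used as a marker of dividing cells. It stood at 118, 268 and 47 CPM in cDC1, 123, 223 and 71.8 in cDC2 and 11, 12.3 and 2.41 in pDC. Replicate 2 was the highest and replicate 3 the lowest library of every subset, and the SD was 113 CPM on a mean of 144 in cDC1 and 76.9 on 139 in cDC2. The fall in pDC was 16.7-fold and 16.1-fold (log2 fold changes -4.06 ± 0.77 and -4.01 ± 0.77 SE, edgeR adjusted p = 0.00164 and 0.00189), with the largest standard errors of the 51 genes. Those errors belong to the main fit, which leaves the pairing of replicates out. Blocking on replicate number kept Mki67 lower in pDC than in cDC1 (log2 fold change -3.94, edgeR adjusted p = 1.80e-06). It also kept Mki67 lower than in cDC2 (-4.06, edgeR adjusted p = 1.63e-06). Top2a, topoisomerase II alpha, which untangles sister chromatids, had the highest mean of the 12 in all 3 subsets. For Top2a the levels were 231, 287 and 158 CPM in cDC1, 247, 282 and 235 in cDC2 and 16.2, 10.7 and 12.1 in pDC, so that pDC lay 17.2-fold below cDC1 and 19.5-fold below cDC2 (edgeR adjusted p = 8.86e-07 and 6.82e-07).

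**Figure D5:**
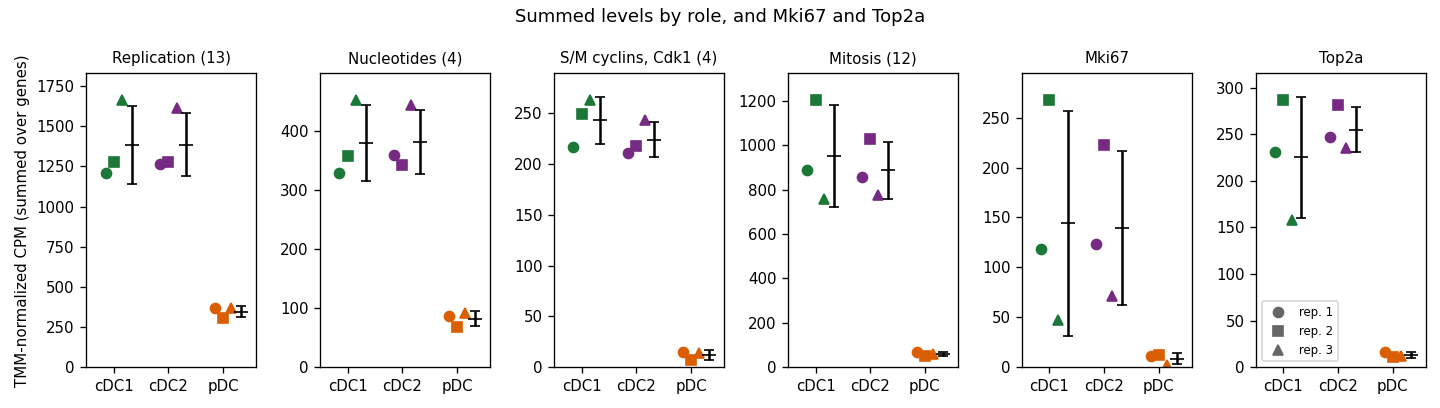
TMM-normalized CPM (y axes, each from 0) summed over the genes of 4 roles, with the number of genes in each title, and for Mki67 and Top2a alone; marker shapes are replicates and bars are mean ± SD of 3 libraries. The sums of the 12 mitosis genes lay between 756 and 1204 in the conventional subsets and between 48.7 and 68.1 in pDC, and Mki67 in cDC1 ranged from 47 to 268.

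Genes of the spindle checkpoint and the anaphase switch were also lower in pDC. Cdc20 activates the ligase that starts anaphase. Cdc20 stood at 45, 54 and 54.2 CPM in cDC1, 34.9, 36.3 and 33.4 in cDC2 and 2.93, 1.32 and 3.3 in pDC. Cdc20 in pDC was thus 20.2-fold below cDC1 and 13.8-fold below cDC2 (edgeR adjusted p = 1.22e-06 and 2.75e-06). Bub1 and Bub1b hold anaphase back until chromosomes are attached. Bub1 was at 32.6, 39.1 and 43.6 CPM in cDC1, 31.7, 35.5 and 39.4 in cDC2 and 1.51, 0.557 and 6.89 in pDC. The fall of Bub1 in pDC was 13.4-fold against cDC1 and 12.4-fold against cDC2 (edgeR adjusted p = 0.000905 and 0.00116). For Bub1b the levels were 75.2, 91.3 and 68.9 CPM in cDC1, 71.5, 74.3 and 64.2 in cDC2 and 7.56, 6.38 and 5.89 in pDC, so that pDC lay 11.8-fold below cDC1 and 10.5-fold below cDC2 (edgeR adjusted p = 1.35e-07 and 1.91e-07). Bub1 in pDC spread from 0.557 to 6.89 CPM, and pDC replicate 3 was the highest of its subset. The cDC2 libraries of Cdc20 lay below those of cDC1, 1.46-fold on average, which did not pass (edgeR adjusted p = 0.124) but did when only those 6 libraries were fitted (edgeR adjusted p = 0.00872).

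Among the mitotic kinases, Plk1, which acts at centrosomes and kinetochores, fell most. Plk1 stood at 28.9, 39.3 and 36.5 CPM in cDC1, 30.1, 30 and 25.2 in cDC2 and 2.45, 0.81 and 0.648 in pDC. Plk1 in pDC was thus 24.8-fold below cDC1 and 20.2-fold below cDC2 (edgeR adjusted p = 9.96e-06 and 1.68e-05). Aurora kinase A works at spindle poles. Aurka was at 22.9, 27.4 and 32.1 CPM in cDC1, 22.7, 24.9 and 18.4 in cDC2 and 2.63, 1.62 and 8.19 in pDC. The fall of Aurka in pDC was 6.76-fold against cDC1 and 5.42-fold against cDC2 (edgeR adjusted p = 0.00106 and 0.00225). Its pDC replicate 3 again stood above the other pDC libraries, and without replicate 1 of all subsets its fall against cDC2 no longer passed (edgeR adjusted p = 0.0524). Aurora kinase B and survivin, encoded by Birc5, sit together in the chromosomal passenger complex. For Aurkb the levels were 47.5, 53.5 and 56 CPM in cDC1, 36.5, 42.1 and 46.2 in cDC2 and 5.32, 3.04 and 6.24 in pDC, so that pDC lay 10.7-fold below cDC1 and 8.53-fold below cDC2 (edgeR adjusted p = 2.12e-06 and 4.17e-06). Birc5 stood at 53.8, 58.1 and 70.6 CPM in cDC1, 60.3, 55.4 and 68.6 in cDC2 and 4.05, 2.08 and 2.89 in pDC. Birc5 in pDC was thus 19.8-fold below cDC1 and 20-fold below cDC2 (edgeR adjusted p = 5.24e-07 and 5.00e-07). Neither overlapped between pDC and a conventional subset.

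The kinesin motors of mitosis completed the group. Kif11 pushes spindle poles apart. Kif11 was at 75.6, 84.8 and 51.9 CPM in cDC1, 88.9, 100.5 and 88.6 in cDC2 and 6.32, 3.24 and 3 in pDC. The fall of Kif11 in pDC was 16.5-fold against cDC1 and 21.6-fold against cDC2 (edgeR adjusted p = 3.22e-06 and 2.16e-06). Kif20a and Kif23 act in the midzone and in cytokinesis. For Kif20a the levels were 46, 56.9 and 40.1 CPM in cDC1, 42.6, 45.8 and 28.4 in cDC2 and 3.09, 2.58 and 1.24 in pDC, so that pDC lay 20.1-fold below cDC1 and 16.4-fold below cDC2 (edgeR adjusted p = 3.35e-06 and 5.52e-06). Kif23 stood at 113, 145 and 97.2 CPM in cDC1, 66.5, 79.6 and 56.6 in cDC2 and 4.99, 4.05 and 4.59 in pDC. Kif23 in pDC was thus 26-fold below cDC1 and 14.8-fold below cDC2 (edgeR adjusted p = 1.35e-07 and 3.47e-07). The fall of Kif23 against cDC1 was the largest of the 51 genes. It was the 1 member lower in cDC2 than in cDC1, by 1.75-fold (log2 fold change -0.81 ± 0.17 SE, edgeR adjusted p = 0.00735), with no overlap of the libraries. Without replicate 1 of all subsets that call was lost (edgeR adjusted p = 0.124). Cdc23 on the opposite strand covers 29.3% of the exonic bases of Kif20a.

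The 6 transcription factors were lower in pDC in both comparisons, over a wide range of sizes. E2f1 and E2f2 are activating members of the E2F family. E2f1 stood at 31.5, 32.4 and 41.9 CPM in cDC1, 34.1, 32.8 and 42 in cDC2 and 27.7, 25.2 and 22.8 in pDC. The pDC libraries lay just below the rest, by 1.39-fold and 1.44-fold (edgeR adjusted p = 0.0293 and 0.021). The call of E2f1 against cDC1 was lost without cDC1 replicate 3 or without pDC replicate 2 or 3 (edgeR adjusted p = 0.075, 0.058 and 0.0734), and against cDC2 without cDC2 replicate 3 or pDC replicate 2 or 3 (0.0666, 0.0514 and 0.0549). E2f2 behaved differently, at 21.2, 18.8 and 22.4 CPM in cDC1, 82.9, 73.2 and 76 in cDC2 and 2.6, 1.27 and 2.47 in pDC. Its 3 subsets did not overlap. The excess in cDC2 was 3.72-fold over cDC1 (edgeR adjusted p = 0.000108), and pDC lay 9.7-fold below cDC1 and 36.1-fold below cDC2 (edgeR adjusted p = 2.11e-06 and 1.96e-07), the latter the largest fall of the 51.

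E2f7 and E2f8 are atypical E2F factors that repress E2F targets. E2f7 was at 4.95, 7.34 and 4.6 CPM in cDC1, 5.77, 6.51 and 5.95 in cDC2 and 0.272, 0.355 and 0 in pDC. The fall of E2f7 in pDC was 24.9-fold against cDC1 and 26.8-fold against cDC2 (edgeR adjusted p = 0.000122 and 0.000115). The count of 0 for E2f7 in pDC replicate 3 allows up to 0.175 CPM. For E2f8 the levels were 27.1, 31 and 25.3 CPM in cDC1, 26.3, 31.4 and 36.6 in cDC2 and 3.12, 1.32 and 3.47 in pDC, so that pDC lay 10.5-fold below cDC1 and 11.8-fold below cDC2 (edgeR adjusted p = 1.20e-05 and 1.00e-05). Gm2788, on the opposite strand, covers 11.2% of the exonic bases of E2f8. Mybl2 (B-Myb) and Foxm1 drive the genes of G2 and mitosis. Mybl2 stood at 12.3, 13.6 and 12.5 CPM in cDC1, 11.5, 12 and 20.1 in cDC2 and 1.42, 0.912 and 1.88 in pDC. Mybl2 in pDC was thus 9.13-fold below cDC1 and 10.3-fold below cDC2 (edgeR adjusted p = 2.26e-05 and 1.83e-05). Foxm1 was at 37.5, 48.6 and 41.2 CPM in cDC1, 30.8, 34.6 and 37.4 in cDC2 and 18.8, 21.4 and 19.8 in pDC. The fall of Foxm1 in pDC was 2.12-fold against cDC1 and 1.71-fold against cDC2 (edgeR adjusted p = 0.000117 and 0.00111). Foxm1 thus kept close to 20 CPM in each pDC library (mean 20 ± 1.35, SD, n = 3). For Mybl2, 17.1% of the 75-base windows are shared with 16 other genes.

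The 4 brakes moved in different ways. Cdkn1a, the inhibitor p21, stood at 23.8, 15.7 and 22.7 CPM in cDC1, 13.4, 10.2 and 18.6 in cDC2 and 2.93, 1.37 and 2.53 in pDC. It was 8.99-fold and 6.09-fold lower in pDC, with no overlap (edgeR adjusted p = 3.77e-05 and 0.000144). Cdkn1b, the inhibitor p27, stood at 29.9, 31.7 and 45.1 CPM in cDC1, 43.3, 55.2 and 54.7 in cDC2 and 31.5, 34.7 and 61.9 in pDC. Replicate 3 of pDC was the highest of the 9 libraries and no difference passed (edgeR adjusted p = 0.44, 0.462 and 0.194, the last for the conventional subsets). With the replicate block, Cdkn1b was higher in cDC2 than in cDC1 (log2 fold change 0.55, edgeR adjusted p = 0.019). Without that pDC library, pDC lay below cDC2 (log2 fold change -0.62, edgeR adjusted p = 0.029). Cdkn2c, the inhibitor p18, stood at 25.1, 32.5 and 40.2 CPM in cDC1, 35.1, 33.5 and 38.9 in cDC2 and 31.2, 33.7 and 30.2 in pDC. All ranges overlapped and no difference passed (edgeR adjusted p from 0.425 to 0.873).

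Rb1, the retinoblastoma protein that holds E2F factors back, stood at 62.4, 55.4 and 79 CPM in cDC1, 119, 132 and 166 in cDC2 and 66.6, 61.2 and 90.3 in pDC. It was highest in cDC2, 2.12-fold above cDC1 and 1.91-fold above pDC (edgeR adjusted p = 0.00275 and 0.00307), and pDC and cDC1 overlapped (edgeR adjusted p = 0.565). The excess over cDC1 was lost without replicate 1 of all subsets (edgeR adjusted p = 0.0512). Genes on the opposite strand cover 14.9% of its exonic bases.

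Between the conventional subsets, the summed levels of the core genes lay close together. Over the 33 genes of replication, nucleotide supply, S and M cyclins and mitosis, the summed level was 2642, 3090.1 and 3132 CPM in cDC1, 2691, 2868 and 3073 in cDC2 and 538, 427 and 530.5 in pDC. The ratio of the cDC2 to the cDC1 mean was 0.974. Of these 33 genes, 1 passed the test between cDC2 and cDC1, Kif23, and the log2 fold changes of the 33 ran from -0.81 to 0.39. The libraries of cDC2 and cDC1 did not overlap in 13 of the 51 members (6 higher and 7 lower in cDC2), as they did not in 44.5% of all genes. With the replicate block 7 further members passed. Ccnd3, Cdk2, Mcm4 and Cdkn1b were then higher in cDC2 (log2 fold changes 0.30, 0.46, 0.28 and 0.55, edgeR adjusted p from 0.00357 to 0.0308). Gins2, Foxm1 and Cdkn1a were lower (-0.42, -0.31 and -0.58, edgeR adjusted p from 0.0325 to 0.045).

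Other genes of the same pathways were counted beside the members. Of 166 tested, 124 were lower and 10 higher in pDC than in cDC1, where 24.4% and 24.3% of all genes were. Against cDC2, 126 were lower and 11 higher in pDC, where 23.3% and 22.5% of all genes were. Between the conventional subsets, 9 were higher and 3 lower in cDC2, where 12.7% and 11.7% of all genes were. Of 71 other mitosis genes, 70 were lower in pDC against each conventional subset, and the exception was Pttg1, securin, at 24.4, 24.1 and 32 CPM in cDC1, 32.1, 29.8 and 39.3 in cDC2 and 25.4, 25.2 and 40.9 in pDC. Troap and Cdc25c, a phosphatase that activates Cdk1, had the largest falls against cDC1 among those with enough counts, to means of 0.148 and 0.162 CPM in pDC from 9.04 and 6.19 in cDC1 (edgeR adjusted p = 1.37e-05 and 0.000115). Depdc1a fell to 0.0809 CPM from 4.25 in cDC2 (edgeR adjusted p = 7.47e-05). A count of 3 was worth 0.0924 to 0.175 CPM in the pDC libraries before scaling. The pDC means of Troap, Cdc25c and Depdc1a lay near or under that limit, so the sizes of these falls are uncertain. Of 45 other replication genes, 33 were lower in pDC than in cDC1 and 35 than in cDC2, with medians of -1.12 and -1.14. Orc4, a subunit of the origin recognition complex, was higher in pDC, at 26.2, 28.4 and 31.3 CPM in cDC1, 28.7, 31.6 and 28.1 in cDC2 and 32.9, 39.7 and 48.9 in pDC (edgeR adjusted p = 0.0234 and 0.0354). Of 10 other nucleotide genes, 6 were lower in pDC against each conventional subset, while 2 (Rrm2b and Tk2) stood higher against cDC1 and 1 (Rrm2b) against cDC2. Rrm2b, a ribonucleotide reductase subunit of resting cells, stood at 28.3, 28.7 and 29 CPM in cDC1, 37.4, 43.9 and 47.3 in cDC2 and 54.8, 55.5 and 81.1 in pDC (edgeR adjusted p = 0.000299 and 0.0171 for the pDC comparisons). Umps, an enzyme of pyrimidine synthesis, was also lower in cDC2 than in cDC1 (edgeR adjusted p = 0.00326).

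G1 regulators outside the members were mixed, with 9 of 23 lower in pDC against each conventional subset and 3 and 2 higher. The share lower was 39.1% in each, beside 24.4% and 23.3% of all genes. The shares higher were 13% and 8.7%, beside 24.3% and 22.5% of all genes. Myc, which promotes growth and entry into the cycle, stood at 13.5, 13.3 and 11 CPM in cDC1, 18.2, 19.6 and 20.3 in cDC2 and 2.27, 1.27 and 2.41 in pDC (edgeR adjusted p = 1.32e-05 and 3.87e-06 for pDC against cDC1 and cDC2). E2f4, an E2F factor of resting cells, was higher in pDC, at 70.1, 68 and 63.1 CPM in cDC1, 73.1, 65.4 and 69.1 in cDC2 and 108, 102 and 127 in pDC (edgeR adjusted p = 0.000388 and 0.000619). Cdc25a, a phosphatase that activates Cdk2, was 2-fold lower in cDC2 than in cDC1, with means of 32 ± 8.1 and 64.1 ± 6.36 CPM (SD, n = 3, edgeR adjusted p = 0.00351).

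Of 17 other brakes, 4 were higher (23.5%) and 6 lower (35.3%) in pDC than in cDC1, where 24.3% and 24.4% of all genes were. Against cDC2, 6 were higher and 6 lower (35.3% each), where 22.5% and 23.3% of all genes were. Cdkn2d, the inhibitor p19, rose most, at 17.6, 18 and 27.6 CPM in cDC1, 26.5, 24.8 and 23.2 in cDC2 and 87.3, 91.3 and 88.9 in pDC. Its pDC libraries lay close together and above all others (4.25-fold over cDC1 and 3.59-fold over cDC2, edgeR adjusted p = 6.66e-06 and 1.63e-05). Gadd45a, a stress gene that binds Pcna, was higher in pDC at a low level, with a mean of 6.28 CPM against 2.67 in cDC1 and 2.22 in cDC2 (edgeR adjusted p = 0.00553 and 0.00196). Cdkn2b, the inhibitor p15, had a mean of 8.45 ± 2.42 CPM in cDC2, against 2.11 ± 1.24 for cDC1 and 0.0875 ± 0.111 for pDC (SD, n = 3). Gadd45g had means of 33.5 ± 5.12, 12.3 ± 1.32 and 1.62 ± 0.492 CPM in the same order. Both were higher in cDC2 than in cDC1 (edgeR adjusted p = 0.0282 and 0.00108). The pDC mean of Cdkn2b lay under the 0.0924 to 0.175 CPM that a count of 3 was worth in the pDC libraries.

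Markers of other cells that a sort could carry over were counted beside these results. For comparison, 24.3% of all genes tested were higher and 24.4% lower in pDC than in cDC1, and 22.5% and 23.3% than in cDC2. Of 12 erythroid genes, 2 stood higher in pDC against cDC1 and 1 against cDC2. Their summed level was 99.6 to 133 CPM in cDC1, 183 to 228 in cDC2 and 211 to 309 in pDC. The globin gene Hbb-bs overlapped between the subsets. It stood at 29.5, 24.1 and 38 CPM in cDC1, 30.9, 26.8 and 44.4 in cDC2 and 24.4, 20.3 and 38.6 in pDC. Genes of neutrophils and their progenitors overlapped in summed level, with 8.38 to 39.7 CPM in cDC1, 28.7 to 77.4 in cDC2 and 5.88 to 65.4 in pDC, and Ly6g was at or under a count of 3 in 8 of 9 libraries. Summed markers of stem and progenitor cells stood at 298 to 334 CPM in cDC1, 469 to 479 in cDC2 and 39.6 to 52.8 in pDC. Kit made up most of that sum, at 325, 312 and 287 CPM in cDC1, 454, 444 and 448 in cDC2 and 29.6, 20.2 and 28.1 in pDC, while Hlf was at or under a count of 3 in 6 of 9 libraries. Of the 5 testable genes of the list, 2 (Kit and Cd34) were lower in pDC against each conventional subset, while 2 (Meis1 and Cd93) stood higher against cDC1 and 1 (Cd93) against cDC2. The NK cell list summed to 133 to 169, 92.5 to 195 and 27.2 to 60.3 CPM, of which Klrk1 gave 117 to 132, 65.2 to 81.6 and 15.2 to 17.4, and 1 of its 8 genes was lower in pDC than in cDC1 and 4 than in cDC2. Of 9 T cell genes, 2 (Cd28 and Lat) were higher in pDC in both comparisons and 1 (Cd5) was lower than in cDC2, and the receptor genes Trac, Trbc1 and Trbc2 stood at 3.4 CPM or less. The B cell list summed to 96 to 105 CPM in cDC1, 71.2 to 83.2 for cDC2 and 297 to 438 for pDC. Of 5 of its genes tested, 4 stood higher and 1 (Ms4a1) lower in pDC against cDC1, and 2 stood higher and 2 (Ms4a1 and Cr2) lower against cDC2. Of 11 macrophage and monocyte genes, 2 were higher in pDC in each comparison and 3 were lower than in cDC2. Their sums were 489 to 709 CPM in cDC1, 1732.5 to 2494 in cDC2 and 2304 to 3540 in pDC. Of 6 plasma cell genes tested, 4 stood higher in pDC against cDC1 and 5 against cDC2, where 1 (Prdm1) was lower. The plasma cell list of 7 summed to 118 to 152 CPM in cDC1, 103 to 117 in cDC2 and 748 to 1026 in pDC. The part of any of these in the levels of the cell cycle genes was not tested.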

How the data were processed

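RNA from 3 sorted subsets of spleen dendritic cells (cDC1, cDC2 and pDC, 3 libraries each) was sequenced in 75-base single reads from a stranded mRNA kit. Per the submitters' processing notes, the authors used STAR, SAMtools, featureCounts and MultiQC with the mouse build mm10. The deposited table holds raw read counts per gene, not normalized; the annotation and the strand setting of the counting are not given in the sources used here. Subsets and replicate numbers were taken from the sample titles, and every column of counts was mapped to its sample by the sample description.

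Genes were filtered with filterByExpr (minimum count 10), which left 13819 of 39179 to test. Counts were scaled by TMM and tested with the quasi-likelihood test of edgeR 4.0.16 in R 4.3.3, with the subset as the only term over all 9 libraries and Benjamini-Hochberg adjustment over all genes tested (threshold 0.05). Fold changes are those of this fit, SD are over 3 libraries, and precision from counting alone is limited by totals of 15806597 to 32453789 counts. Alternatives were a replicate block, other scalings, DESeq2 1.42.0, limma-voom (limma 3.58.1), other filters and thresholds, and leaving out libraries. Same-numbered libraries carry the same date code, and their deviations from the subset means correlated (mean r 0.403 over 9 pairs, lowest 0.266). The mean over 18 other pairs was -0.180, but centring on means of 3 libraries itself pulls these below 0. The numbers were taken as pairs in the replicate block only, so the main tests leave the pairing out. Exon overlaps and shared windows came from GENCODE gene models of GRCm38, in which 37607 of the 39179 genes were found, and promoters from RefSeq. The code was tested on simulated data.

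Members were named in full where a comparison passed at a log2 fold change of 1 or more in size, or where they were main regulators. Of other pathway genes, the 2 largest rises and falls of each comparison were named where the higher subset averaged 100 counts or more. The members and lists were chosen with earlier results of these data known.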

Additional observations from a re-analysis of the deposited data

How the results depend on the processing

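Of 3507 values recomputed under 23 alternatives, 3437 kept their side of the threshold, 38 no longer passed and 32 newly passed. Among values that passed in the main fit or in the alternative, 0 turned direction. Values that passed in neither could change sign, as Mki67 for cDC2 against cDC1 did (log2 fold changes from -0.58 to 0.75). Between cDC2 and cDC1, the replicate block gave 8 members higher and 4 lower in place of 4 and 1. The count lower in cDC2 was 3 with limma-voom and 3 when only the 6 libraries compared were fitted, and 0 with a log2 fold change of size 1 required. The 1 member higher in pDC than in cDC2, Cdk6, was lost with no filter, at an adjusted p under 0.01 and with that size of log2 fold change required, leaving 0. Leaving out libraries or replicate numbers gave 0 to 1 members higher in pDC than in cDC2, 0 to 3 lower in cDC2 than in cDC1 and 3 to 7 higher, and without pDC replicate 2 Cdk1 and Cdc20 were added to the lower ones. Removing replicate 3 of all subsets gave the 7, with Ccnd3, Cdk2 and Cdkn1b added, and removing replicate 1 lost Kif23 and Rb1. Apart from Cdk4, Ccnd3 and the 7 genes named between the conventional subsets, the replicate block changed no call of a member. Requiring 10 counts in every library left out Ccne1, Ccne2, Gins1 and E2f7. Scaling by library size alone moved the median of all genes to 0.11 for pDC against cDC1 and 0.14 for cDC2 against cDC1, where 63.1% of calls were then higher in place of 52.2%. Levels in pDC under about 3 counts are not resolved at this depth, and the cause of these changes was not tested.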

Other observations

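Many of these genes differed between libraries numbered 3 and the other libraries of the conventional subsets. The median log2 ratio of replicate 3 to the mean of replicates 1 and 2 over the members was 0.328 in cDC1 and 0.234 in cDC2. Over 13683 genes it was 0.00053 and -0.032. How many of all genes lay on the same side in both subsets was not counted. Of the 51 members, 33 were higher in replicate 3 than in the mean of replicates 1 and 2 in both cDC1 and cDC2, among them 12 of the 13 replication genes and all 4 nucleotide genes. Another 8 were lower in both, Ccnb1, Mki67, Top2a, Bub1b, Kif11, Kif20a, Kif23 and E2f7, of which 6 were among the 12 mitosis genes. The summed level of 12 immediate-early genes, such as Fos and Jun, ran to 3147, 2150.1 and 6523 CPM for cDC1, 3374, 3681 and 6323 for cDC2 and 1694, 1809 and 4421 for pDC, highest in replicate 3 of each subset. Among the 12 mitosis genes, Spearman's rho between exonic length and the log2 ratio of replicate 3 to the others came to -0.741 for cDC1, -0.357 for cDC2 and -0.336 for pDC. Over all 51 members rho was -0.205, -0.131 and -0.0806, and over 13683 genes it was -0.232, -0.0862 and -0.0989. Pearson's r on log2 length set the members further apart, at -0.347, -0.159 and -0.0321. Over the 13683 genes that r was -0.135, 0.0148 and -0.00699, and over the 12 mitosis genes -0.786, -0.437 and -0.388. These are descriptions across genes, which share their libraries and are not independent replicates.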
